A study of Rattus norvegicus with 24 samples.

Results

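The 9 genes described here code for dopamine receptors and for the signalling proteins that medium spiny neurons of the striatum carry in quantity. They are Drd1, Drd2, Drd3, Ppp1r1b, Adora2a, Adcy5, Rgs9, Tac1 and Pde10a. They were chosen by name, and every probe set of the Affymetrix rat expression array whose only gene symbol is one of these was taken, which gave 14 probe sets among 31099, for 9 of 14217 genes that the array names in this way. A probe set had to reach the 20th percentile of its array on at least 3 of the 24 arrays to be tested. This left 12 of the 14 member probe sets, standing for 8 genes, among 27032 probe sets tested. The sole probe set of Drd3 and the second one of Adcy5 did not pass. Where a gene had several probe sets, the one with the highest mean signal is the one meant below unless a second probe set is named.

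RNA of tissue labelled midbrain was measured in adult female Long-Evans rats, on 6 OVX/ADX arrays (ovaries and adrenals removed), 6 OVX arrays (ovaries removed) and 12 arrays of gonadally intact, proestrous rats. The study's methods state that gland-removed rats were primed with estradiol benzoate and that the midbrain was taken by gross dissection. The intact arrays come in 2 sets of 6, one titled Intact and one titled with bare numbers, called here Intact-named and number-named. OVX/ADX arrays are titled with bare numbers too. Of these, 2530 and 2541 fall within the range of the number-named titles, 2526 to 2543, and the others run from 4123 to 4126. In each set of 6, 3 arrays carry the label paced mated, meaning that the female controlled her contacts with a male, and 3 the label chamber-exposed, meaning an empty chamber. The methods mention 6 intact rats in behavioural testing, so whether both intact sets come from separate rats is not given in the sources used here. Each array is taken as 1 sample, and p-values measure only the spread between these arrays. The labels do not say whether any of them were pooled or are technical repeats.

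Dopamine acts on striatal neurons through receptors of opposite sign. The D1 receptor (Drd1) raises cyclic AMP and marks the neurons of the direct pathway, which also make substance P from Tac1. The D2 receptor (Drd2) lowers cyclic AMP and marks neurons of the indirect pathway, which also carry the adenosine receptor coded by Adora2a. Adenylyl cyclase 5 (Adcy5) makes most striatal cyclic AMP, phosphodiesterase 10A (Pde10a) breaks it down, DARPP-32 (Ppp1r1b) passes the signal on to phosphatases, and RGS9 (Rgs9) shortens G protein signals. Outside the striatum, dopamine neurons carry the D2 receptor as an autoreceptor, and lactotrophs of the anterior pituitary carry it as the brake on prolactin release. Tac1 is also made by neurons of the hypothalamus and brainstem.

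The lowest signals on the arrays fell into 3 separate ranges, 3.38 to 3.43 on the OVX/ADX arrays, 2.30 to 2.39 on the Intact-named together with the OVX arrays, and 3.58 to 3.65 on the number-named arrays. These ranges were taken as 3 normalization runs, which the labels do not name. Levels were tested only within a run, since run and group cannot be told apart between runs. Mating differences, each taken within its set, were also joined and compared over both intact sets, which lie in different runs. Regional marker genes also differed between runs. Th, the gene for tyrosine hydroxylase, served as a marker of dopamine neurons. Its median percentile within the array was 92.4 on OVX/ADX arrays and 94.6 on number-named arrays. On OVX and Intact-named arrays it was 36.9 and 33.6. Slc17a7, the vesicular glutamate transporter of cortex and hippocampus, ran the other way, with medians of 55.1, 97.6, 97.9 and 52.6 on OVX/ADX, OVX, Intact-named and number-named arrays. The mean percentile of 11 midbrain dopamine neuron genes, Th among them, had medians of 65.9, 45.8, 42.2 and 72.1 in the same order of sets. The Intact-named and OVX arrays, labelled midbrain, were thus lower in these markers than the other arrays. In bulk tissue, fewer cells of a type and less RNA per cell cannot be told apart.

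To follow striatal content, a striatal score was taken as the mean log2 signal of 15 striatal genes that are not among the 9, such as Penk (enkephalin) and Pdyn (dynorphin). It lay between 8.15 and 8.28 on OVX/ADX arrays, between 8.34 and 8.56 on OVX arrays, between 8.32 and 9.03 on Intact-named arrays, and between 8.53 and 8.66 on number-named arrays. The widest range was that of the Intact-named set. Its arrays Intact-1, Intact-3 and Intact-5, labelled paced mated, scored 8.88, 8.78 and 8.75, and its chamber-exposed arrays Intact-2, Intact-4 and Intact-6 scored 8.32, 8.38 and 9.03. One chamber-exposed array thus had the highest score of all, and the other 2 the lowest of their set.

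**Figure D1:**
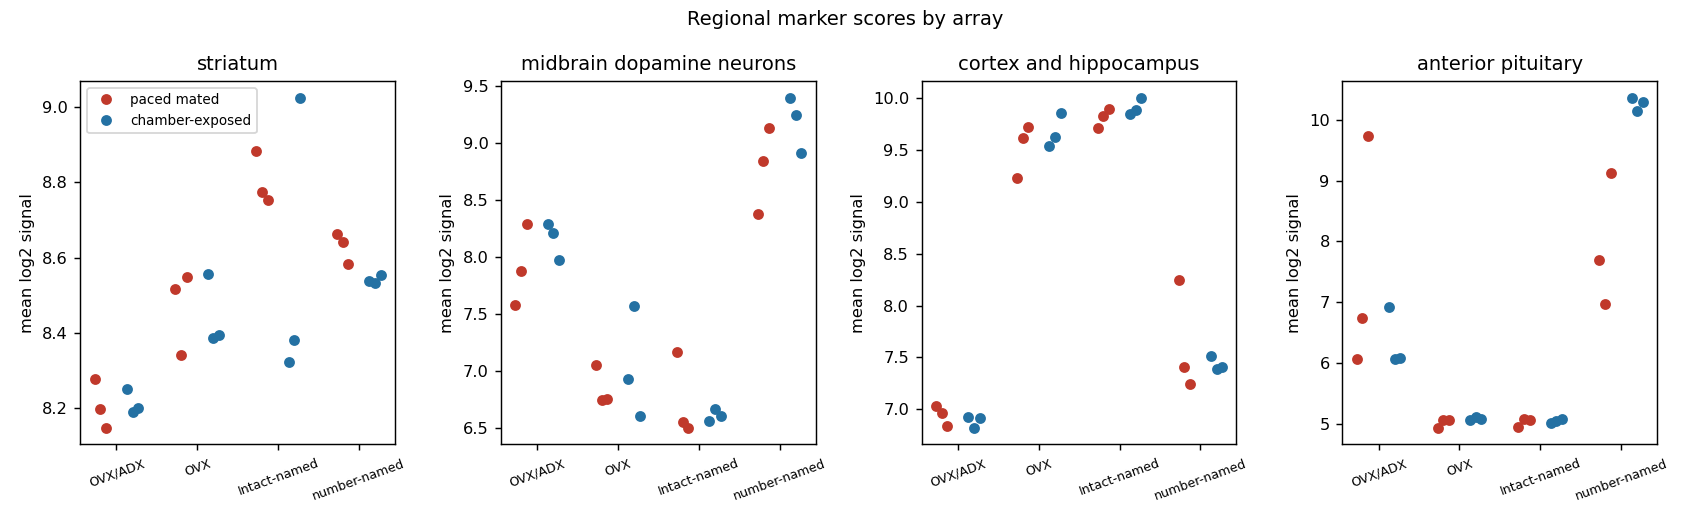
Scores (mean log2 signal) for 4 lists of regional markers, by array and title set, with paced mated arrays (red) left of chamber-exposed arrays (blue). The striatal score spans 8.32 to 9.03 on Intact-named arrays, and the anterior pituitary score spans 6.06 to 9.73 on OVX/ADX arrays and 6.97 to 10.36 on number-named arrays. Scores are from the signals as deposited, whose scale differs between normalization runs.

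The place of each gene within the arrays differed between title sets. The median percentile of Ppp1r1b was 76.0, 85.9, 91.4 and 76.7 on OVX/ADX, OVX, Intact-named and number-named arrays. Pde10a had medians of 75.8, 84.9, 89.6 and 82.0 in the same order of sets. Both were most prominent on the Intact-named arrays. Tac1 had the other pattern, with medians of 88.7, 66.2, 66.9 and 88.7, so that it was most prominent on the arrays rich in Th. Drd1 was at medians of 48.3, 62.3, 72.6 and 44.7, and Adora2a at 31.6, 41.2, 62.7 and 28.5, both highest on the Intact-named arrays. Drd2 was at 52.9, 44.2, 59.6 and 67.4, highest on number-named arrays. Adcy5 and Rgs9 lay between 56.4 and 71.6 in every set. These are ranks of probe sets, which differ in how well they bind their targets, and they give no order of transcript number between genes.

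Drd3, the receptor of the nucleus accumbens and islands of Calleja, stayed at or near the floor of the arrays. Its signal was 3.96 to 4.28 on OVX/ADX arrays, 3.98 to 4.42 on OVX arrays, 3.96 to 4.21 on Intact-named arrays and 5.08 to 5.14 on number-named arrays, which is no higher than the 15.6th percentile on any array. The higher values on number-named arrays stand in a run of their own. No level of Drd3 above background can be read from these arrays.

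**Figure D2:**
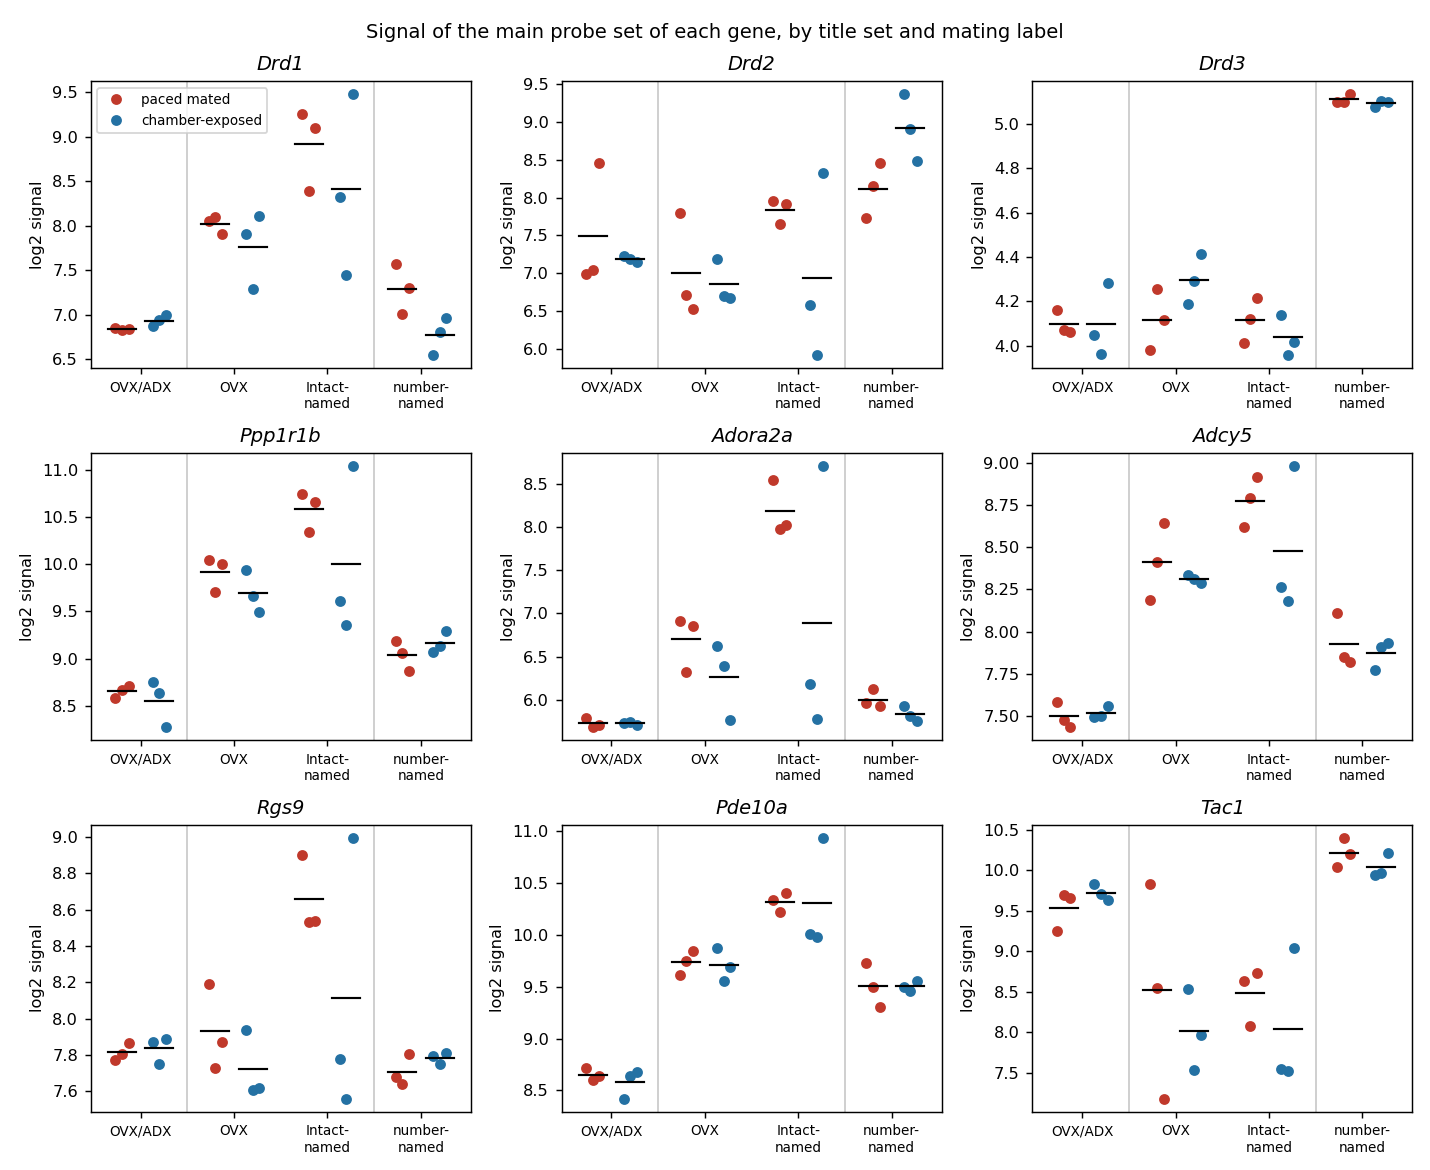
Log2 signal of the main probe set of each gene on the 24 arrays, by title set, with paced mated arrays (red) left of chamber-exposed arrays (blue); points are arrays and bars are means of 3. Grey lines separate normalization runs. Most genes, Drd2 among them, spread widely on the Intact-named arrays. Most spread narrowly on OVX/ADX and number-named arrays, whereas Drd2 and, less so, Drd1 also spread on number-named arrays. Drd2 has 1 high OVX/ADX array at 8.46.

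Sequence upstream of the annotated start is shown for Pde10a, whose OVX and Intact-named arrays did not overlap. It is also shown for Rgs9, which in the run shared by these sets was high on the arrays of high striatal score. The third gene shown is Drd2, which moved with pituitary markers, and more closely with dopamine neuron markers, on number-named arrays. Capitals mark matches to the cyclic AMP response element core (TGACG) and to the GC box (GGGCGG) on either strand, within 250 bases before the start. The sequences are from RefSeq for rat build GRCr8. They lie at chr1:54765669-54765918 on the minus strand for Pde10a, at chr10:94770388-94770637 on the minus strand for Rgs9, and at chr8:58605153-58605402 on the plus strand for Drd2.
Pde10a: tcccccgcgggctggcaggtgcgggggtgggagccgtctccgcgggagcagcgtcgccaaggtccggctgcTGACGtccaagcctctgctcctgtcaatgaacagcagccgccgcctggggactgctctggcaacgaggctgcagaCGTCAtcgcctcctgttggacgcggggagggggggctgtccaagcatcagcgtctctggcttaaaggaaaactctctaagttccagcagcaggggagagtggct
Rgs9: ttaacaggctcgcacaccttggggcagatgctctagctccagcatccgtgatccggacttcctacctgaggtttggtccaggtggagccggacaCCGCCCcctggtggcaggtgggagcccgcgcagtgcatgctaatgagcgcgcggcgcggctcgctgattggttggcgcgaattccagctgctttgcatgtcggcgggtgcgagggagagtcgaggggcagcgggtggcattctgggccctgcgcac
Drd2: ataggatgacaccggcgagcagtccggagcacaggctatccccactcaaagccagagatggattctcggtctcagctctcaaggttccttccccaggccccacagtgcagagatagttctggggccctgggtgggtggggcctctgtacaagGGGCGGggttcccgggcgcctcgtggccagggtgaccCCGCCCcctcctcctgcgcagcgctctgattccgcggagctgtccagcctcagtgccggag
The Pde10a window shown held 2 matches to the element core and no GC box. A second annotated window of this gene, at chr1:54501207-54501456 on the minus strand, held 1 GC box and no element core. Rgs9 held 1 GC box, and Drd2 held 2 GC boxes. Of 33469 rat promoter windows of the same length, 18.2% held the element core and 30.5% held a GC box, so neither match is rare. A match describes these letters only. Of the 9 genes, 7 had a window, and Ppp1r1b and Adora2a had none.

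Where Intact-named and OVX arrays share a run, Adora2a, Ppp1r1b, Rgs9, Drd1 and Pde10a each had their highest signals on the 4 Intact-named arrays with the highest striatal scores. The signal of Adora2a on the 6 OVX arrays was 6.91, 6.33 and 6.86 on OVX-1, OVX-3 and OVX-5, labelled paced mated, and 6.62, 6.40 and 5.76 on OVX-2, OVX-4 and OVX-6, labelled chamber-exposed. On Intact-named arrays it was 8.55, 7.98 and 8.02 on the paced mated Intact-1, Intact-3 and Intact-5, and 6.18, 5.78 and 8.71 on the chamber-exposed Intact-2, Intact-4 and Intact-6. Adora2a was high on exactly the 4 Intact-named arrays with a striatal score of 8.75 or more. Intact-2 and Intact-4 lay within the range of the OVX arrays.

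Ppp1r1b had a similar order. It was 10.05, 9.70 and 10.00 on paced mated OVX arrays and 9.94, 9.66 and 9.50 on chamber-exposed ones. On Intact-named arrays it was 10.74, 10.34 and 10.67 on paced mated arrays and 9.61, 9.36 and 11.04 on chamber-exposed ones. Intact-6 was the highest array and Intact-4 the lowest of all 12. Rgs9 gave 8.19, 7.73 and 7.87 on paced mated and 7.93, 7.61 and 7.62 on chamber-exposed OVX arrays. The same gene gave 8.90, 8.53 and 8.54 on paced mated and 7.78, 7.56 and 9.0 on chamber-exposed Intact-named arrays. Here too Intact-6 was highest, with Intact-2 among the OVX arrays and Intact-4 just below them.

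The 4 arrays with high striatal scores stood apart by a gap, between 8.56 and 8.75, and therefore no correlation over all 12 arrays is given. Over the 8 arrays below the gap, Pearson's r with the striatal score was 0.79 for Ppp1r1b (exact permutation p = 0.0263, adjusted over the 9 genes 0.181), with Spearman's rho of 0.60 (exact p = 0.132, adjusted 0.513). It was 0.72 for Adora2a (exact permutation p = 0.0548, adjusted 0.181), with a rho of 0.60. It was 0.68 for Rgs9 (exact permutation p = 0.0603, adjusted 0.181), with a rho of 0.55. None of the 9 passed adjustment within these 8 arrays. Drd1 and Pde10a had r of -0.03 and -0.11 there. Within the 6 OVX arrays alone, no relation passed adjustment over the 135 relations computed across scores, genes and array sets, and r ranged from -0.68 for Drd3 to 0.84 for Ppp1r1b. The other runs did not share this order. On number-named arrays r with the striatal score was -0.79 for Rgs9, -0.04 for Ppp1r1b and 0.71 for Adora2a. On OVX/ADX arrays it was -0.23, -0.01 and 0.67, and 3 of the 9 genes had a positive r. None of these passed adjustment.

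**Figure D3:**
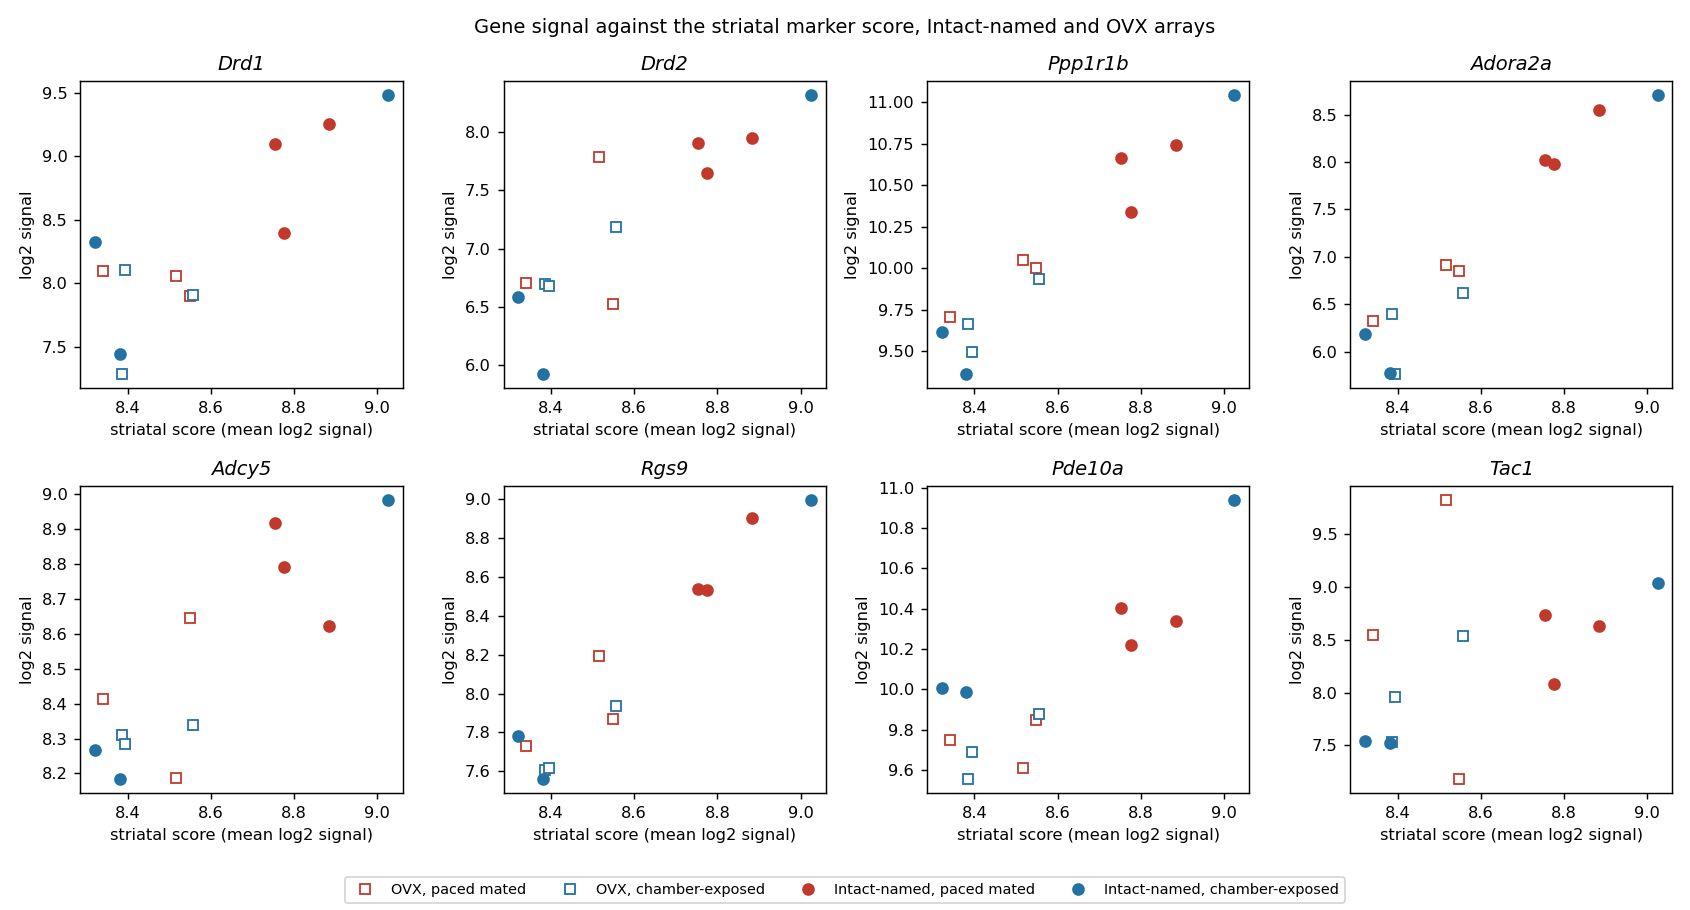
Log2 signal of 8 genes (vertical axes) against the striatal score (horizontal axes, mean log2 signal of 15 striatal genes) on the 6 OVX (open squares) and 6 Intact-named (filled circles) arrays, with paced mated in red and chamber-exposed in blue. The chamber-exposed array Intact-6, at a score of 9.03, lies at the top right for 7 of the genes, and Tac1 is highest on OVX-1 at 9.83 instead.

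The D1 receptor and both cyclic AMP enzymes overlapped OVX arrays to different degrees. Drd1 was 8.06, 8.10 and 7.90 on paced mated and 7.91, 7.28 and 8.11 on chamber-exposed OVX arrays. On Intact-named arrays Drd1 was 9.25, 8.40 and 9.10 where labelled paced mated and 8.33, 7.44 and 9.48 where labelled chamber-exposed. Of the Intact-named arrays only Intact-4 fell within the range of OVX arrays. Pde10a was 9.61, 9.75 and 9.85 on paced mated and 9.88, 9.55 and 9.69 on chamber-exposed OVX arrays. On the Intact-named arrays Pde10a was 10.34, 10.22 and 10.40 where paced mated and 10.00, 9.98 and 10.94 where chamber-exposed. For Pde10a, alone of the 12 member probe sets tested, OVX and Intact-named arrays did not overlap. Over all probe sets 2.64% did not overlap in this comparison. Adcy5 ranged over 8.19 to 8.65 on OVX arrays and over 8.18 to 8.98 on Intact-named arrays, where Intact-1 and Intact-2 lay within the range of the OVX arrays and Intact-4 just below it.

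The comparison of OVX with Intact-named arrays asks whether ovary removal with estradiol priming changed expression. Titles of OVX and of Intact-named arrays begin with different numbers, so title series and ovary removal cannot be told apart. Of the 12 member probe sets tested, none passed an adjusted p of 0.05 in limma with the mating label as a term, against 388 of all 27032 probe sets (1.44%), of which 93 were higher and 295 lower on OVX arrays. At an unadjusted p under 0.05 there were 5 member probe sets, all lower on OVX arrays, against 21.0% of all probe sets. They belong to Pde10a (both probe sets), Adora2a, Drd1 and Rgs9. Adora2a averaged 1.05 less on OVX arrays on the log2 scale (a difference of -1.05 ± 0.42 SE, n = 6 each, limma adjusted p = 0.18). Drd1 differed by -0.77 ± 0.29 (limma adjusted p = 0.16), Pde10a by -0.59 ± 0.14 (limma adjusted p = 0.062) and Rgs9 by -0.56 ± 0.21 (limma adjusted p = 0.17). Smaller differences were -0.49 ± 0.24 for Ppp1r1b (limma adjusted p = 0.26), -0.46 ± 0.36 for Drd2 (limma adjusted p = 0.49) and -0.26 ± 0.13 for Adcy5 (limma adjusted p = 0.27). Tac1 did not lean either way, at 0.00 ± 0.40, with a 95% interval of -0.86 to 0.87. In exact two-sided permutation tests within mating labels, where 400 arrangements allow no p below 0.005, Pde10a gave 0.005, Adora2a 0.04 and both Drd1 and Rgs9 0.045, each unadjusted.

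Striatal markers moved with these genes. Of 15 striatal list genes, 13 were lower and 2 higher on OVX arrays, with a median difference of -0.21, against -0.00 for all probe sets tested. One of them, Pdyn, fell (-0.62 ± 0.12, limma adjusted p = 0.034), whereas Penk had -0.80 ± 0.40 (limma adjusted p = 0.28). The cortex and hippocampus list leaned the same way (11 of 13 lower, median -0.24, with Emx2 called), and that of midbrain dopamine neurons the other way (10 of 11 higher, median 0.27). The thalamus list differed by more than these. All 8 of its genes were higher on OVX arrays (median 0.97), each at an unadjusted p under 0.05, and 1 rose past adjustment, Zic1, a transcription factor (0.92 ± 0.15, limma adjusted p = 0.023). Of 5 choroid plexus genes, 4 were higher (median 0.56) and none was called. The part of these tissue markers in the differences of the 9 genes was not tested beyond the values given here. With the striatal score as a further term, the difference was -0.15 ± 0.15 for Adora2a, -0.31 ± 0.25 for Drd1, -0.12 ± 0.09 for Rgs9 and 0.02 ± 0.10 for Ppp1r1b. Pde10a kept -0.32 ± 0.10 (limma adjusted p = 0.16). The number of probe sets called over the whole array was 3 in that fit. Without array OVX-4 the count of calls was 0, and without Intact-6 it was 274, with Pde10a among them at -0.45 (limma adjusted p = 0.040). Other members moved towards 0 without Intact-6, Drd2 to -0.19, Ppp1r1b to -0.28 and Adcy5 to -0.16, whereas without Intact-4 Drd2 was at -0.73.

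**Figure D4:**
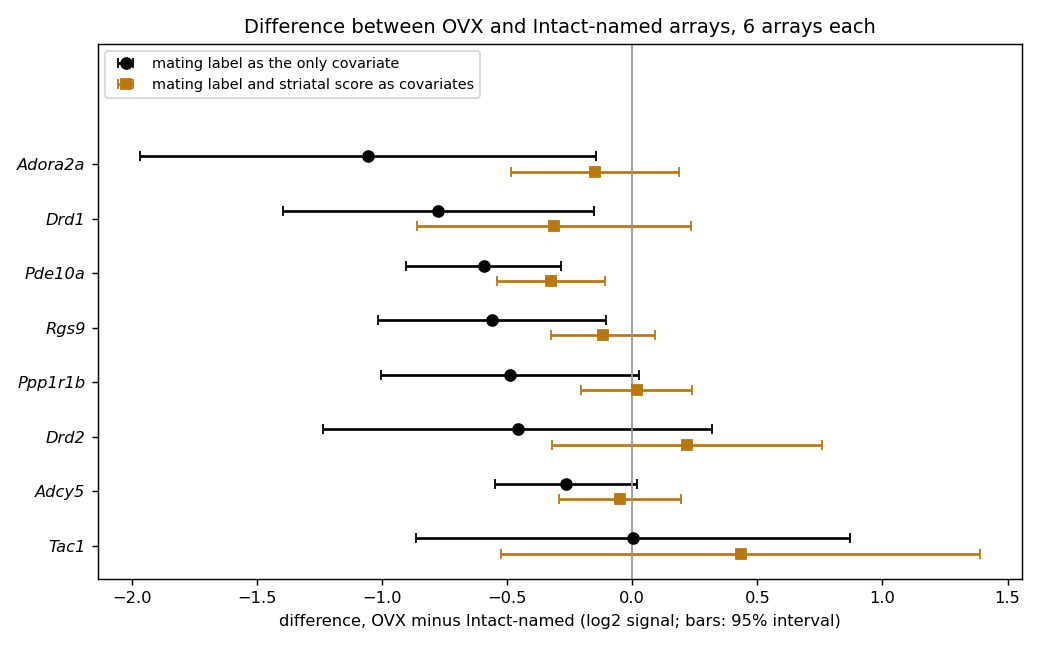
Difference in log2 signal between 6 OVX and 6 Intact-named arrays for 8 genes, with 95% intervals, from a model with the mating label (black circles) and one with the striatal score added (brown squares). For Adora2a the difference is -1.05 without the score and -0.15 with it, and for Pde10a, whose intervals both stay below 0, it is -0.59 without and -0.32 with it.

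Second probe sets of the same genes gave a mixed picture. That of Pde10a differed by -0.52 ± 0.19 between OVX and Intact-named arrays, close to the main one. Those of Drd1 and Adora2a had -0.38 ± 0.30 and -0.24 ± 0.14, and that of Rgs9 had -0.00 ± 0.06 at a median percentile of 20.1 on OVX and 20.8 on Intact-named arrays. The second Adora2a probe set also ranked the sets otherwise, with medians of 39.4, 31.5, 36.2 and 45.7 on OVX/ADX, OVX, Intact-named and number-named arrays, so the order of sets for Adora2a depends on the probe set.

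Paced mating was compared with chamber exposure within each set, where 3 against 3 arrays cannot give an exact permutation p below 0.1. On the number-named arrays none of the 12 member probe sets passed an adjusted p of 0.05 in limma, against 12 of all probe sets (0.0444%). At an unadjusted p under 0.05 there were 2, Drd1 and Drd2, against 9.33% of all, and 4 of the 12 did not overlap between labels, against 15.4% of all. Drd1 was 7.57, 7.01 and 7.30 on arrays labelled paced mated and 6.54, 6.80 and 6.96 on those labelled chamber-exposed. All paced mated arrays lay above all chamber-exposed ones, by 0.52 ± 0.16 on average (limma adjusted p = 0.34, exact permutation p = 0.1). The second Drd1 probe set had 0.17 ± 0.12. The striatal score separated the labels too, at 8.66, 8.64 and 8.58 where paced mated against 8.54, 8.53 and 8.55 where chamber-exposed, and with it as a term the Drd1 difference was 0.32 ± 0.33. Cortical markers also moved with Drd1, 12 of the 13 cortex and hippocampus genes being higher where labelled paced mated (median 0.17), as were 6 of 6 genes shared by striatum and cortex (median 0.20), none of them called. The array with the highest Drd1 signal, 2543, had a cortex and hippocampus score of 8.24, against 7.24 to 7.52 on the other 5 arrays. Without it the Drd1 difference was 0.39 (limma adjusted p = 0.47). The part of cortical RNA in the Drd1 signal was not tested beyond these values.

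Drd2 went the other way on the number-named arrays. It was 7.73, 8.15 and 8.46 on arrays labelled paced mated and 9.37, 8.91 and 8.49 on those labelled chamber-exposed, a difference of -0.81 ± 0.24 (limma adjusted p = 0.36, exact permutation p = 0.1). The labels did not overlap, although the highest paced mated and the lowest chamber-exposed array lay close together. The other 2 member probe sets without overlap were Adora2a at 0.17 ± 0.08 and the second Rgs9 probe set at -0.08 ± 0.05.

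Marker lists moved with Drd2 on these arrays. All 10 anterior pituitary genes were lower where labelled paced mated (median -2.18), 1 of them past adjustment, Fshb, the follicle-stimulating hormone subunit (-2.20 ± 0.12, limma adjusted p = 0.0031). By these labels that direction is opposite to the one the study gives for its pituitary genes. The pituitary score was 7.69, 6.97 and 9.13 on the paced mated arrays in the order given for Drd2, against 10.36, 10.14 and 10.29 on the chamber-exposed ones. All 11 genes of midbrain dopamine neurons were lower as well (median -0.37), none past adjustment. Over the 6 arrays Drd2 had a Pearson's r of 0.80 with the pituitary score (exact permutation p = 0.0597, adjusted over 135 relations 0.278; rho 0.89) and of 0.94 with the dopamine neuron score (adjusted 0.0833, exact permutation; rho 0.94). With the striatal score, which separated the labels, its r was -0.90 (exact permutation p = 0.0125, adjusted 0.121; rho -0.94). With the 2 arrays farthest from the median of each score left out, these r were 0.58 for the pituitary, 0.86 for the dopamine neuron and -0.73 for the striatal score. A relation to the pituitary score was not particular to Drd2. Rgs9 had an r of 0.89 with it (exact permutation p = 0.025, adjusted 0.188) and Adora2a one of -0.85 (exact permutation p = 0.0194, adjusted 0.154). With the same 2 arrays left out these were -0.21 and -0.49. With the pituitary score as a term, the Drd2 difference was -0.33 ± 0.51, and with the striatal score as a term it turned sign, to 0.05 ± 0.38. The part of pituitary, dopamine neuron or striatal RNA in the Drd2 signal was not tested beyond these values.

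OVX/ADX arrays held the second case of this kind. Drd2 was 6.99, 7.04 and 8.46 on the paced mated arrays 4123, 4125 and 2541, and 7.23, 7.18 and 7.15 on the chamber-exposed arrays 4124, 4126 and 2530. Array 2541 was thus alone in its height. Its pituitary score of 9.73 was also alone, against 6.06 to 6.92 on the other 5 arrays. By title number 2541 falls among the number-named arrays, as does 2530, whose pituitary score was 6.09. The part of this title series in the Drd2 signal was not tested. Pearson's r of Drd2 with that score was 0.96 over the 6 arrays (exact permutation p = 0.0542, adjusted 0.261, rho 0.77). It was -0.38 with 2541 and 4124, the 2 arrays farthest from the median score, left out together. It was not computed without 2541 alone. The mating difference of Drd2 was 0.31 ± 0.37 with array 2541 and -0.17 without it.

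**Figure D5:**
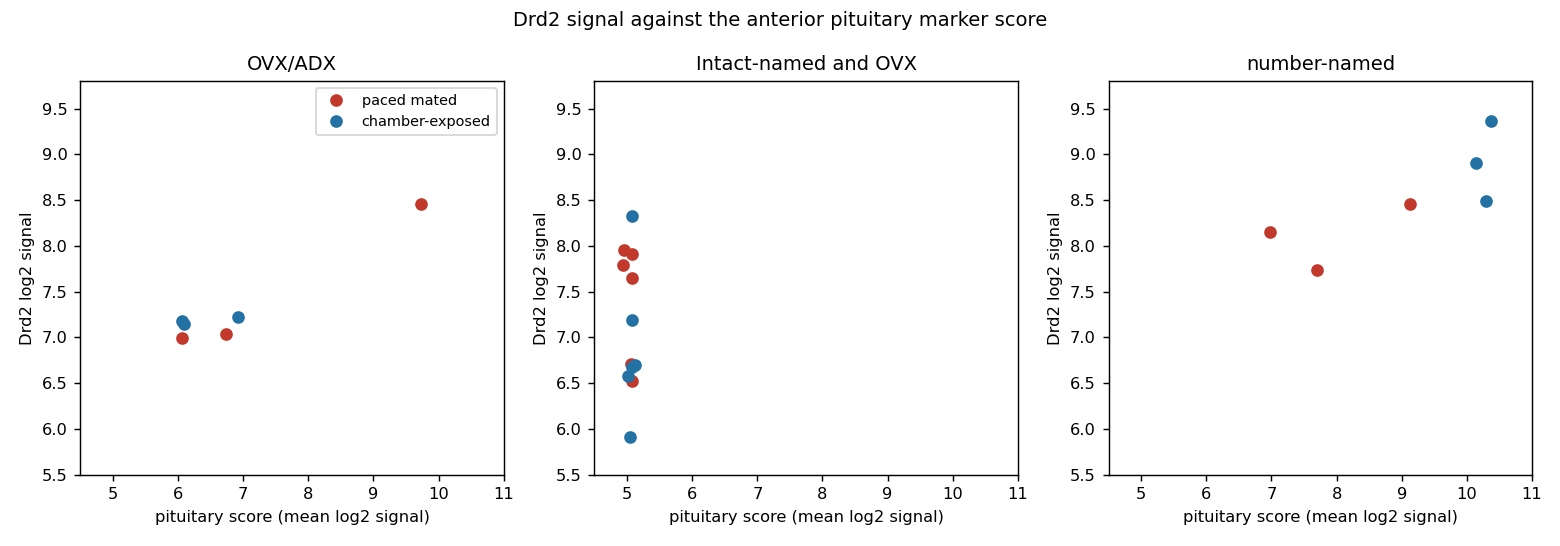
Drd2 log2 signal (vertical axis) against the anterior pituitary score (horizontal axis, mean log2 signal of 10 pituitary genes) in each normalization run, with paced mated arrays in red and chamber-exposed arrays in blue. Drd2 is highest at high scores on the number-named arrays and on OVX/ADX array 2541, whereas in the shared run of Intact-named with OVX arrays the score stays between 4.94 and 5.12 while Drd2 spans 5.92 to 8.32.

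The pituitary genes lay, on Intact-named and OVX arrays, near their lowest levels, and Drd2 still differed between arrays there. It was 7.79, 6.71 and 6.53 on paced mated and 7.19, 6.70 and 6.68 on chamber-exposed OVX arrays. It was 7.95, 7.65 and 7.91 on paced mated and 6.58, 5.92 and 8.32 on chamber-exposed Intact-named arrays. As with Adora2a, Intact-6 was highest and Intact-4 lowest. The mating difference of Drd2 was 0.90 ± 0.54 on Intact-named arrays and -0.81 ± 0.24 on number-named ones. The difference between these 2 was 1.71 ± 0.67 and did not pass adjustment (limma adjusted p = 0.38, where 0.0814% of all probe sets passed).

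On the Intact-named arrays the mating difference was positive for the main probe sets of 8 of the 8 member genes, but with wide errors. The second probe sets of Pde10a and Rgs9 had -0.10 and -0.02, and those of Drd1 and Adora2a 0.01 and 0.32. None of the 12 probe sets passed an adjusted or an unadjusted p of 0.05 in limma, against 0.0148% and 7.99% of all, and none of the 12 was free of overlap between labels, against 13.9% of all. Adora2a had 1.29 ± 0.70 (limma adjusted p = 0.69), Drd2 0.90 ± 0.54, Ppp1r1b 0.58 ± 0.41, Rgs9 0.55 ± 0.35 and Pde10a 0.01 ± 0.25. The chamber-exposed arrays Intact-6 and Intact-4 moved these values in opposite ways. Without Intact-6 the differences were larger, and 9 of the 12 probe sets had an unadjusted limma p under 0.05, against 8.27% of all probe sets in that fit, and none passed adjustment, with Adora2a at 2.20 (limma adjusted p = 0.080), Drd2 at 1.59 (0.11) and Ppp1r1b at 1.10 (0.12). In that fit the striatal score was 8.75 to 8.88 where paced mated and 8.32 and 8.38 where chamber-exposed, so label and score cannot be told apart. These probe sets also vary together, so their count is not one of independent results. Without Intact-4 the differences were smaller, with Adora2a at 0.73, Drd2 at 0.39 and Ppp1r1b at 0.26. With all arrays and the striatal score as a term, Adora2a had 0.38 ± 0.20, Rgs9 0.10 ± 0.14 and Drd1 -0.03 ± 0.35.

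On OVX arrays none of the 12 member probe sets passed at an adjusted or unadjusted p of 0.05 in limma, against 0.0% and 2.42% of all, and none lacked overlap, against 6.29%. The largest differences were 0.51 ± 0.61 for Tac1 and 0.44 ± 0.25 for Adora2a. On OVX/ADX arrays none passed either threshold, against 0.0% and 2.47% of all. There 1 of the 12 did not overlap, against 6.78%, which was Drd1 at 6.85, 6.83 and 6.84 where paced mated against 6.87, 6.93 and 6.99 where chamber-exposed. The Drd1 difference of -0.09 ± 0.06 (exact permutation p = 0.1) was small, and opposite in sign to that on number-named arrays, a difference between sets that was not tested. Adora2a was flat there, at 5.69 to 5.78 where paced mated and 5.71 to 5.74 where chamber-exposed. Rgs9 and Adcy5 differed by -0.02 each between labels.

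Over both intact sets, with the set as a term, none of the 12 passed an adjusted or unadjusted p of 0.05, against 0.0% and 7.72% of all. Adora2a had 0.73 ± 0.41 (limma adjusted p = 0.69) and Drd1 0.51 ± 0.28 (limma adjusted p = 0.67, exact permutation p = 0.14 over 400 arrangements), whereas Drd2 was at 0.05 ± 0.40, its differences having opposite signs in the 2 sets. The interaction of mating with ovariectomy, the mating difference on OVX arrays minus that on Intact-named ones, called none of the 12, against 0.0074% of all, and none at an unadjusted p of 0.05, against 4.95%. Its largest values were -0.85 ± 0.84 for Adora2a and -0.75 ± 0.71 for Drd2. These moved from -1.76 without Intact-6 to -0.30 without Intact-4 for Adora2a, and from -1.44 to -0.23 for Drd2 without the same arrays. Without Intact-6, 6 of the 12 had an unadjusted p under 0.05 in limma, against 6.24% of all, and none passed adjustment. Here too, mating label and striatal score of the Intact-named arrays cannot be told apart.

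Tac1 ranked the title sets otherwise than Ppp1r1b or Adora2a. It was 9.25, 9.70 and 9.66 on paced mated and 9.83, 9.71 and 9.64 on chamber-exposed OVX/ADX arrays. It was 10.04, 10.41 and 10.20 on paced mated and 9.94, 9.96 and 10.22 on chamber-exposed number-named arrays. The labels overlapped in both sets, and the lowest OVX/ADX array, 4123, lay apart from the others. OVX arrays spread from 7.18 on OVX-5 to 9.83 on OVX-1, both labelled paced mated. Intact-named arrays gave 8.63, 8.08 and 8.73 where paced mated and 7.54, 7.52 and 9.04 where chamber-exposed, with Intact-6 highest and Intact-4 lowest, as for Adora2a. Pearson's r of Tac1 with the striatal score was 0.13 over the 6 OVX arrays (exact permutation p = 0.826, adjusted 0.987, rho -0.14), where Drd1 and Adcy5 had 0.12 and 0.22. Over the 6 Intact-named arrays, which lie on both sides of the gap in that score, Tac1 had an r of 0.93. There the exact permutation p was 0.0111 (adjusted 0.121, rho 0.77), and r was 0.69 without Intact-2 and Intact-4.

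To describe likeness, the mean of each title set was taken off and Pearson's r was computed over the 24 arrays, which share runs and tissue content. Sets in which a gene spreads widely weigh most in this r, for most members the Intact-named set. The genes nearest to the mean of the members other than Drd2 and Tac1 were Penk (0.89), Syndig1l (0.88), Atp6ap1l (0.84), Pde1b (0.84) and Arpp19 (0.82). Penk and Pde1b are on the striatal list, and Arpp19 is a phosphoprotein that inhibits protein phosphatase 2A. Among the members themselves, Adora2a, Ppp1r1b and Rgs9 lay at 0.94 or more, partly because each is part of that mean, while Drd2 reached 0.66, Tac1 0.57 and Drd3 -0.04. The genes nearest to Drd2 were Mettl9 (0.81), Bambi (0.80), Eaf1 (0.77), Parp10 (0.76) and Ift20 (0.76), none on a regional list. Those nearest to Tac1 were Asic4 (0.83), Rasgrp2 (0.83), LOC102552722 (0.80), Penk (0.75) and Dach1 (0.75).

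Other genes of the same pathways were compared between OVX and Intact-named arrays. Of 12 G protein and adenylyl cyclase genes, 7 were higher and 5 lower on OVX arrays (median 0.01), and 1 rose, Adcy8, a calcium-stimulated cyclase (0.57 ± 0.11, limma adjusted p = 0.036). Gnai1 had 0.51 ± 0.23 and Adcy9 -0.42 ± 0.12. Of 17 genes of the protein kinase A and Ppp1r1b circuit, 14 were lower (median -0.05) and none was called, with Creb1 at -0.62 ± 0.16 (limma adjusted p = 0.074) and Arpp19 at -0.41 ± 0.16. Of 10 other phosphodiesterases, 7 were lower (median -0.11) and none was called, led by Pde1a at -0.50 ± 0.22 and Pde1b at -0.30 ± 0.11. Of 12 RGS proteins and receptor regulators, 7 were lower (median -0.05) and none was called, with Rgs7bp, the membrane anchor of RGS9-family proteins, at -0.36 ± 0.12 and Rgs14 at -0.33 ± 0.11. Of 8 adenosine and tachykinin partners, 5 were lower (median -0.04), none called, with Tacr3, the neurokinin B receptor, at -0.74 ± 0.17 (limma adjusted p = 0.058). The other dopamine receptors Drd5 and Drd4 had 0.12 ± 0.10 and 0.08 ± 0.07.

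On the number-named arrays the same lists gave no called gene between mating labels. All 12 RGS proteins and receptor regulators were higher where labelled paced mated, but by a median of 0.09, with Rgs7bp at 0.41 ± 0.22 (limma adjusted p = 0.61) and Rgs4 at 0.31 ± 0.14. Of 17 genes of the protein kinase A and Ppp1r1b circuit, 15 were higher (median 0.07), and of 10 phosphodiesterases 9 (median 0.08), against a median of 0.01 for all probe sets tested. Of 7 genes of dopamine synthesis, transport and breakdown, 5 were lower (median -0.37), with Slc6a3, the dopamine transporter, at -0.63 ± 0.34 and Th at -0.52 ± 0.31, neither called.

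Between runs, levels are given only as a description after quantile normalization of the 24 arrays. OVX/ADX minus number-named arrays gave -0.84 for Drd2 and -0.48 for Pde10a, against 0.51 for Rgs9 and -0.05 for Tac1. Of the 12 member probe sets past the filter, 3 did not overlap between these sets, against 45.1% of all probe sets tested. Intact-named minus number-named arrays gave 1.84 for Adora2a, 1.78 for Drd1, 1.18 for Ppp1r1b and 0.79 for both Rgs9 and Pde10a, against -1.82 for Tac1 and -0.96 for Drd2. The second Adora2a probe set went the other way, at -0.66. Those of Drd1, Rgs9 and Pde10a had 0.65, 1.08 and 0.40. Of the 12 probe sets 7 did not overlap, against 63.7% of all tested.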

How the data were processed

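The log2 signals of the 24 arrays were used as deposited. According to the submitters' processing notes, the authors made them with RMA in Affymetrix Expression Console 1.4, whereas the study's methods name GCRMA, and values of that kind were not used here. Probe sets were named from the platform annotation (20832 with 1 symbol, 436 with several, 9831 with none), and 57 control probe sets were left out. Arrays were grouped by title set and mating label.

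Differences were fitted with limma 3.58.1 in R 4.3.3 (lmFit, eBayes) on all 27032 probe sets kept, with Benjamini-Hochberg adjustment and a threshold of 0.05. The fits were checked on simulated data. Depending on the comparison, 132 to 197 of 200 probe sets changed by 1 log2 unit were recovered, with 1 to 11 false calls. Noise was drawn independently for each probe set, so tissue content shared between genes was not simulated. The check therefore does not give the sensitivity for the 9 genes. Single genes were also tested by exact permutation (Python, scipy 1.17.1). The 9 genes and the 19 marker and pathway lists were chosen with earlier results of these data known. Named from each list were its counts, its median and up to 4 genes with the largest differences, and for likeness the 5 nearest genes. Alternatives covered the filter, quantile normalization, median subtraction, robust and weighted fits, a plain linear model as in the study's methods, tissue scores as covariates, wider fits, a replicate block and leaving out each array. The pituitary score, the 8 arrays below the gap in striatal score, and the comparison of mating effects between intact sets were added after the data were seen. With 3 arrays a group, the number of arrays limits the precision.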

Additional observations from a re-analysis of the deposited data

Results flagged for a closer look

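Among the 36 groups of 6 arrays formed by 9 genes and 4 title sets, 5 held an array far from the others, where chance flags about 1 in 20. Drd2 was 8.46 on OVX/ADX array 2541, with the nearest array at 7.23, and the pituitary score of the same array was 9.73. Drd1 was 7.28 on the chamber-exposed array OVX-4, with the nearest at 7.90. Ppp1r1b was 8.28 on OVX/ADX array 2530, with the nearest at 8.59. Tac1 was 9.25 on OVX/ADX array 4123, with the nearest at 9.64. Pde10a was 8.42 on OVX/ADX array 4124, with the nearest at 8.60. Drd1 also had mating differences of opposite sign in 2 sets. On OVX/ADX arrays it had -0.09 ± 0.06, all paced mated arrays being lower. On number-named arrays it had 0.52 ± 0.16, all paced mated arrays being higher. Such a lack of overlap was found in 6.78% and 15.4% of all probe sets tested in these sets. The second Drd1 probe set had -0.05 and 0.17, with overlap in both. The effects of the main probe set differed by -0.61, and that difference was not tested.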

How the results depend on the processing

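No member probe set passed adjustment under any alternative, except Pde10a, which had -0.45 between OVX and Intact-named arrays without Intact-6, where 1 member was called (0 to 1 over the arrays left out). For paced mating on number-named arrays, the count of 12 called probe sets became 5 with a filter at the 50th percentile, 4 with quantile normalization, 19 with array medians subtracted, 0 with a plain linear model, 112 with array weights, 0 with the striatal score as a term, 2 with the dopamine neuron score as a term, 0 with the pituitary score as a term and 20 with all 24 arrays in the fit, and ranged from 2 to 57 with 1 array left out. For paced mating on Intact-named arrays, the count of 4 called probe sets became 0 with a plain linear model, 1011 with array weights, 2 with the striatal score as a term, 18 with the dopamine neuron score as a term and 595 with all 24 arrays in the fit, and ranged from 1 to 15 with 1 array left out. For paced mating on OVX/ADX arrays, the count of 0 called probe sets became 3 with the pituitary score as a term. For paced mating over both intact sets, the count of 0 called probe sets became 1 with the striatal score as a term, and ranged from 0 to 1 with 1 array left out. For OVX against Intact-named arrays, the count of 388 called probe sets became 84 with a plain linear model, 722 with array weights, 3 with the striatal score as a term, 2 with the dopamine neuron score as a term and 593 with the pituitary score as a term, and ranged from 0 to 443 with 1 array left out. For the interaction of mating with ovariectomy, the count of 2 called probe sets became 1 with a plain linear model, 1 with the striatal score as a term, 1 with the dopamine neuron score as a term and 1 with the pituitary score as a term, and ranged from 1 to 9 with 1 array left out. Of 1088 values of single members under alternatives, 998 kept their direction and their side of the threshold, and 1 newly passed it.

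The other 89 turned sign, 45 of them under settings other than leaving out an array. On number-named arrays, for mating, these were with the striatal score as a term Drd2 at 0.05, Adcy5 at -0.21, Rgs9 at 0.06 and Pde10a at -0.42, with the pituitary score as a term Adora2a at -0.01, Adcy5 at -0.05, Rgs9 at 0.11 and Pde10a at -0.26, with the dopamine neuron score as a term Adcy5 at -0.09 and Pde10a at -0.17, with quantile normalization Pde10a at -0.0037. On Intact-named arrays, for mating, these were with the striatal score as a term Drd1 at -0.03, Tac1 at -0.05 and Pde10a at -0.30, with quantile normalization Pde10a at -0.01, with array weights Pde10a at -0.04. On OVX arrays, for mating, these were with the pituitary score as a term Drd2 at -0.41 and Tac1 at -0.49, with the dopamine neuron score as a term Pde10a at -0.02. On OVX/ADX arrays, for mating, these were with the pituitary score as a term Drd2 at -0.15 and Adcy5 at 0.02, with quantile normalization Adora2a at -0.0031, with array weights Adora2a at -0.03, with the dopamine neuron score as a term Adora2a at -0.01. Over both intact sets, for mating, these were with array weights Drd2 at -0.35 and Pde10a at -0.02, with the striatal score as a term Drd2 at -0.46, Ppp1r1b at -0.15, Rgs9 at -0.09, Tac1 at -0.03 and Pde10a at -0.20, with quantile normalization Pde10a at -0.01, with the dopamine neuron score as a term Pde10a at -0.02, with the pituitary score as a term Pde10a at -0.04. For OVX against Intact-named arrays these were with the striatal score as a term Drd2 at 0.22 and Ppp1r1b at 0.02, with array weights Tac1 at -0.14, with the dopamine neuron score as a term Tac1 at -0.04. For the interaction of mating with ovariectomy these were with array weights Drd1 at 0.34, with the striatal score as a term Drd1 at 0.17, Ppp1r1b at 0.09 and Rgs9 at 0.06, with the pituitary score as a term Tac1 at -0.29, with array medians subtracted Pde10a at -0.01, with the dopamine neuron score as a term Pde10a at -0.03. With 1 array left out, values that turned sign ranged as follows, for paced mating on number-named arrays Adcy5 from -0.04 to 0.11 and Pde10a from -0.10 to 0.11, for paced mating on Intact-named arrays Pde10a from -0.15 to 0.33, for paced mating on OVX arrays Drd2 from -0.24 to 0.39, Adcy5 from -0.01 to 0.22, Tac1 from -0.15 to 1.18 and Pde10a from -0.05 to 0.12, for paced mating on OVX/ADX arrays Drd2 from -0.17 to 0.56, Ppp1r1b from -0.04 to 0.20, Adora2a from -0.03 to 0.02, Adcy5 from -0.06 to 0.01, Rgs9 from -0.07 to 0.004 and Pde10a from -0.01 to 0.13, for paced mating over both intact sets Drd2 from -0.28 to 0.26 and Pde10a from -0.06 to 0.15, for OVX against Intact-named arrays Tac1 from -0.29 to 0.30, for the interaction of mating with ovariectomy Drd1 from -0.78 to 0.24, Tac1 from -0.60 to 0.73 and Pde10a from -0.30 to 0.18. The cause was not tested.

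Same-numbered OVX and Intact-named arrays deviated together with correlations of 0.02 to 0.31, of which 2 of 6 were over 0.1, and 3 of the 6 arrays correlated best with their own number, so the numbers were not taken as pairs. With a replicate block the count for OVX against Intact-named arrays was 375, and the differences were those without it, with Pde10a at a limma adjusted p of 0.065 and Drd1 at 0.072.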
